A study of Mus musculus with 3 samples.

Results

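Open chromatin was examined around 8 transcription factor genes that are known for their roles in hair follicle stem cells (HFSCs), namely Lhx2, Sox9, Nfatc1, Foxc1, Tbx1, Nfib, Nfix and Runx1, out of 21827 protein-coding genes of the mouse genome (build GRCm38). The genes were chosen by name, and for each the window ran from 50 kb before its outermost annotated end on the start side to 50 kb past its other end. Omni-ATAC-seq, an assay in which a transposase (Tn5) cuts the DNA it can reach between nucleosomes, was performed on HFSCs sorted as CD34+ CD49f+ Sca-1- cells from dorsal skin of 6-month-old mice in telogen, when the follicle rests. There was 1 library from wild-type mice (Msx2-WT, C57BL/6J controls matched for the hair cycle) and 2 from mice that carry a germline knockout of Msx2 on both alleles (Msx2-KO replicates 1 and 2). In this knockout a neomycin cassette sits upstream of the second exon in all cells of the animal, so the loss is not limited to HFSCs. The purpose of the comparison was to learn how chromatin differs without Msx2, a homeobox repressor. Msx2-WT formed 1 of 2 batches and both Msx2-KO libraries the other, so a difference by genotype cannot be told apart from one by batch. Genotypes were therefore described and not tested. Whether a library came from 1 mouse or from several was not given in the sources used here.

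HFSCs rest in the bulge of the follicle through telogen and rebuild the follicle when a new growth phase starts. Their identity is held by a small group of transcription factors. Lhx2 and Sox9 specify the stem cells in the embryo and keep them from differentiating in the adult, Nfatc1 and Foxc1 hold them in quiescence, Tbx1 is needed for their replenishment over repeated cycles, Nfib and Nfix together preserve their enhancers, and Runx1 promotes their activation. Genes of this kind are usually controlled by many enhancers, which are stretches of open DNA that lie away from the start site, inside introns or far outside the gene.

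A summit is the highest point of a peak, and its tag number is the number of read ends that MACS2, after extension, stacked at that point. Summits with a −log10 q above 2 were kept, which left 33654 for Msx2-WT, 19450 for replicate 1 of Msx2-KO and 41091 for its replicate 2. Background, taken as its most frequent value, was 1.74 tags in Msx2-WT, 0.476 in replicate 1 and 0.790 in replicate 2, so Msx2-WT was 3.66 times as deep as the shallowest library by this measure. The lowest tag number that passed anywhere was 9 in Msx2-WT, 5 in replicate 1 and 6 in replicate 2, and where the local background was higher more tags were needed. Levels are therefore given as tags over the background of the library. Peaks of different libraries with an overlap of 1 base or more made up a region, called promoter where a summit lay within 1500 bases of a protein-coding start site and distal otherwise. Among 6 bulge and basal epithelium genes (Krt5, Krt14, Krt15, Itga6, Cd34 and Lgr5) a promoter peak was found for 5, 4 and 6 in Msx2-WT, replicate 1 and replicate 2, and for none of 3 leukocyte genes in any library. Peaks were also found for 2 of 3 melanocyte genes in each library, for 2, 0 and 2 of 3 fibroblast genes, for 0, 0 and 1 of 3 endothelial genes, and for 2 of 3 genes of other epidermis (Ly6a, which encodes Sca-1, and Krt10) in Msx2-WT only; their part in the results below was not tested. A peak marks open DNA and not transcription. The Msx2 promoter carried a peak in every library, with 15, 9 and 16 tags, and such a peak does not check the insertion.

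In the 8 windows Msx2-WT listed 71 summits, replicate 1 of Msx2-KO 48 and replicate 2 of Msx2-KO 101, and these merged into 109 regions, 19 promoter and 90 distal. All 3 libraries shared 29 of them, or 26.6% (95% Wilson interval 19.2 to 35.6%), beside 27.6% of 47562 regions over the genome. Of the distal regions 20 of 90 were shared, or 22.2% (14.9 to 31.8%), beside 17.4% over the genome. The members thus lay close to the genome in the share of their regions that every library held. A further 36 regions were in Msx2-KO replicate 2 alone, 16 in Msx2-WT alone, 14 in Msx2-WT and replicate 2, 8 in both Msx2-KO libraries without Msx2-WT, 4 in replicate 1 alone and 2 in Msx2-WT and replicate 1. The shallowest library, replicate 1, held 43 of the 109 regions, compared with 61 in Msx2-WT and 87 in replicate 2. At least 1 shared distal region was present in the windows of 6 of the 8 genes, beside 29.0% of all protein-coding genes, and the median number was 2 beside 0 for all genes. The windows of long genes are longer, so the count per 100 kb is also given below where a gene is named.

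**Figure D1:**
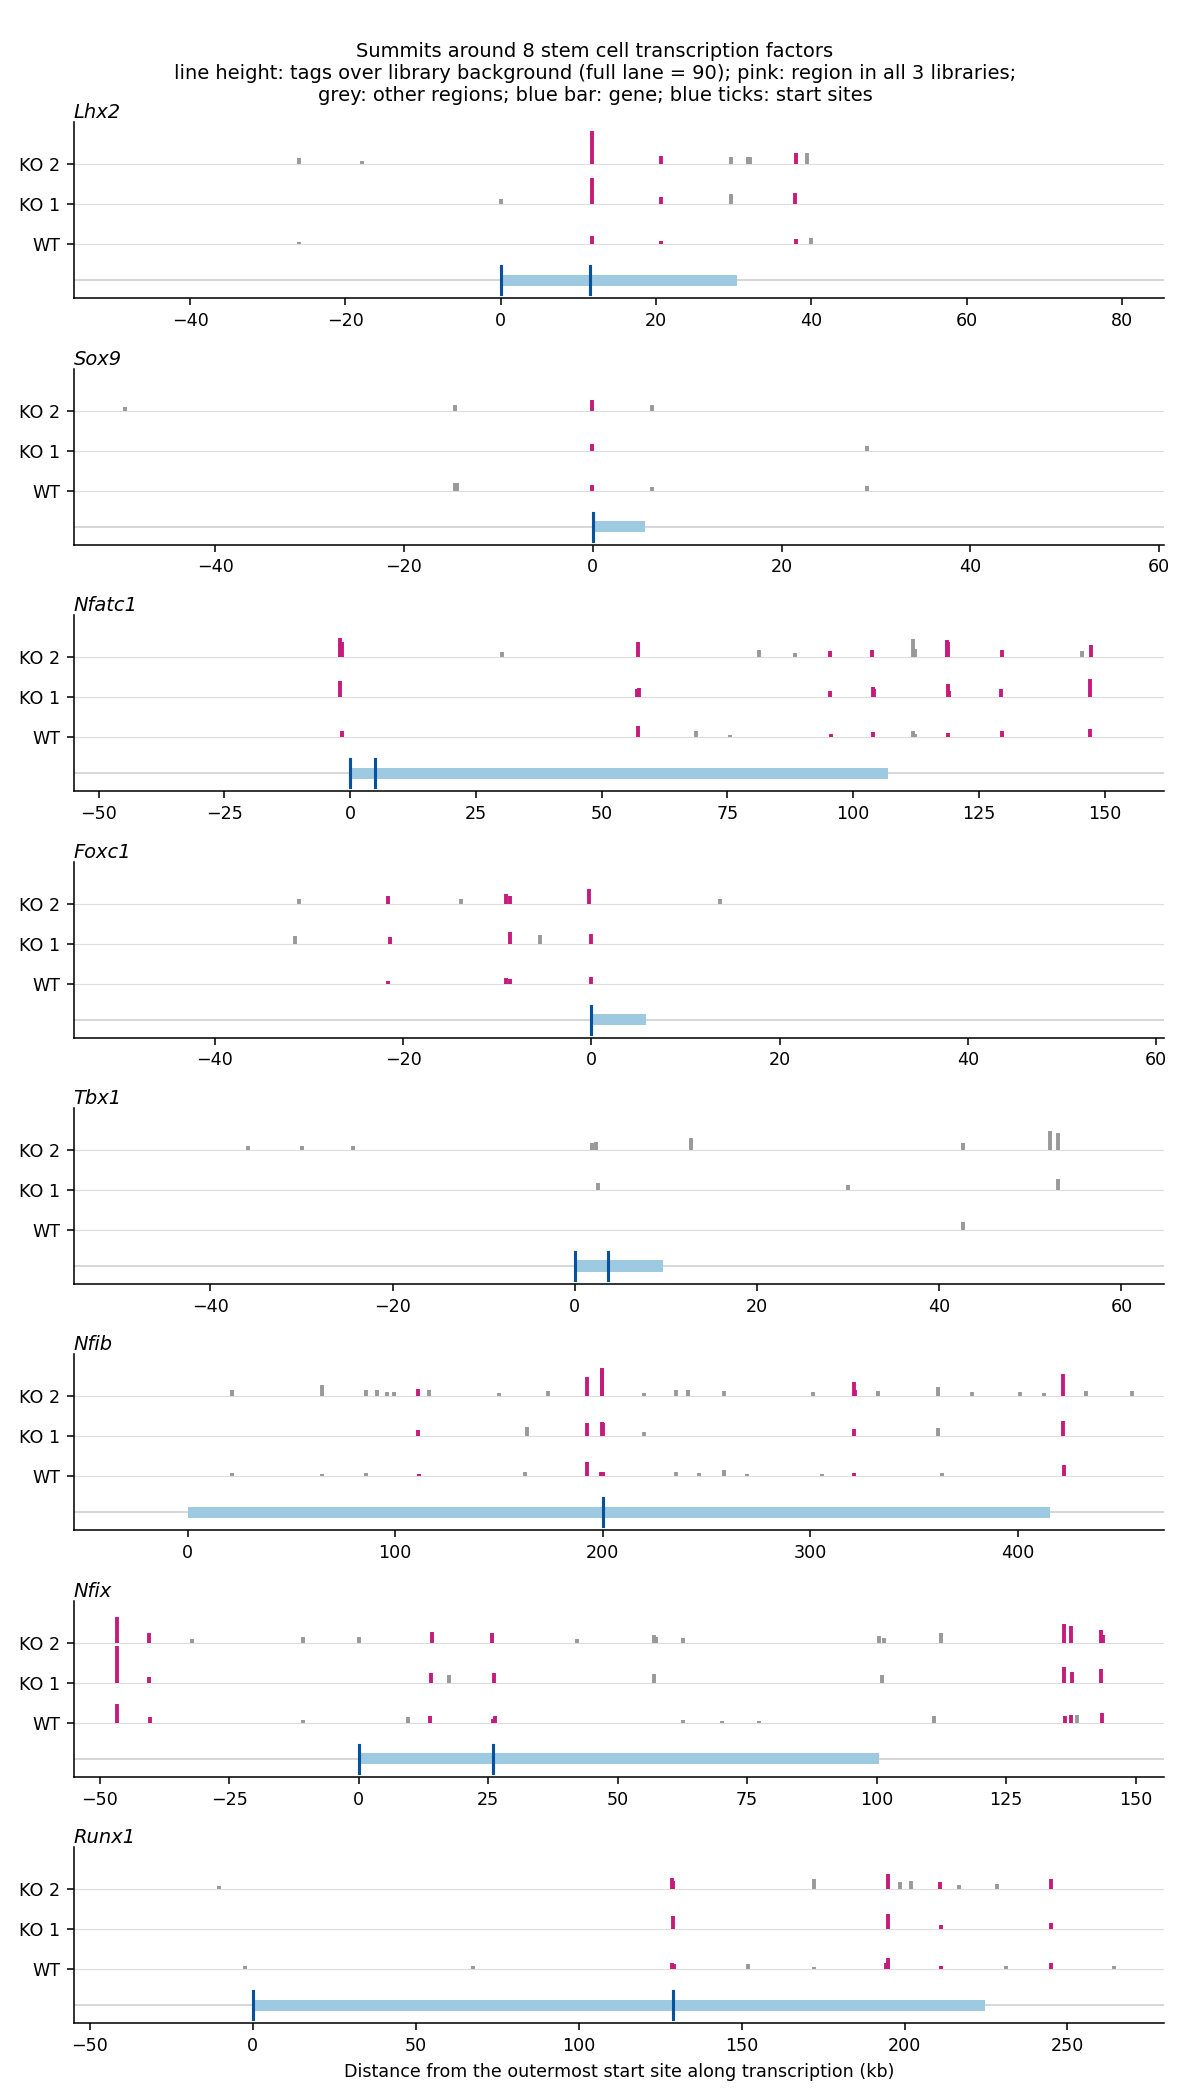
Summits in the window of each gene, in 3 lanes for Msx2-WT, Msx2-KO replicate 1 and Msx2-KO replicate 2, against the distance from the outermost annotated start in kb along transcription. The height of a line is its level in tags over library background, pink lines belong to the 29 regions shared by all 3 libraries, and blue ticks are start sites; Nfatc1 shows 7 pink positions, most of them in the far part of the gene or past its end, while Tbx1 shows none.

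**Figure D2:**
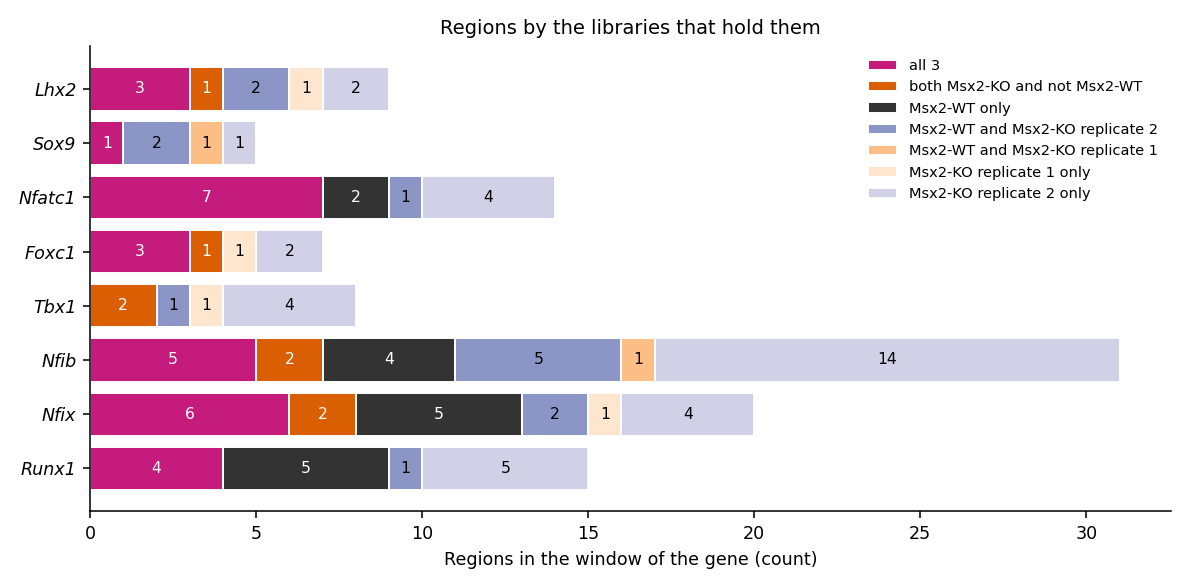
Number of regions in the window of each gene, split by the libraries that hold them. Nfib has the most regions (31), Nfatc1 the most that are shared by all 3 libraries (7), and regions of Msx2-KO replicate 2 alone are found at each of the 8 genes.

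At the start sites, 6 of the 8 genes had a promoter peak in all 3 libraries, namely Lhx2, Sox9, Foxc1, Nfib, Nfix and Runx1, beside 35.2% of all protein-coding genes. Tbx1 had one in both Msx2-KO libraries only, as did 2.31% of all genes, and Nfatc1 had none. By library, such a peak was present for 6, 7 and 7 of the 8 in Msx2-WT, replicate 1 and replicate 2, compared with 47.1%, 37.9% and 53.7% of all genes. Of the members with several start sites, Lhx2, Nfix and Runx1 were open in all 3 libraries at an inner start, and in at most 1 library at the outermost one.

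Lhx2 (ENSMUSG00000000247.11, chromosome 2, 38339281 to 38369733, plus strand), a LIM homeodomain factor, had the strongest promoter among the member genes in every library. At the inner start, 11.5 kb into the gene, Msx2-WT had 33 tags, replicate 1 had 28 and replicate 2 had 59. Over background these were 19.0 (95% Poisson interval 13.1 to 26.7), 58.8 (39.1 to 85.0) and 74.7 (56.9 to 96.3), so Msx2-WT lay below both Msx2-KO libraries without overlap. Shared promoters over the whole genome were also lower in Msx2-WT, with medians of 16.1, 27.3 and 36.7, and once each library was divided by its median the level was 1.18, 2.15 and 2.03. The outermost start of Lhx2 had 6 tags in replicate 1, a listing of 7 tags under the threshold in replicate 2 and none in Msx2-WT. The 250 bases before the RefSeq start at the inner site are shown because all of them lie inside this shared region, at chr2:38350422-38351819. The strongest summit of the region lay 273 bases from that RefSeq start, just outside the bases shown. None of the 12 motifs searched was found in these 250 bases.
Lhx2 promoter, chr2:38351058-38351307, plus strand: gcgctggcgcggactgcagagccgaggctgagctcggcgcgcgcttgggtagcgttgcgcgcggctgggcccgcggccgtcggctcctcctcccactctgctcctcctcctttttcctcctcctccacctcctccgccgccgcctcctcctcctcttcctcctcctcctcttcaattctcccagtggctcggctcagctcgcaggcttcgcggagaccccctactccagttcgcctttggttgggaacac

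Foxc1 (ENSMUSG00000050295.4, chromosome 13, 31806633 to 31812476, plus strand), a forkhead factor with 1 start site, had 27 tags in Msx2-WT, 10 in replicate 1 and 26 in replicate 2 at that site. Over background these were 15.5 (10.2 to 22.6), 21.0 (10.1 to 38.6) and 32.9 (21.5 to 48.2), with overlapping intervals, and over the class median they were 0.964, 0.769 and 0.897. Both of its shared distal regions lay before the gene. The promoter is shown as the counterpart of Lhx2 with nearly equal levels over the class median in the 3 libraries, and it holds 1 RUNX motif (TGTGGT, in capitals), which 14.05% of 32851 RefSeq promoters of this length hold.
Foxc1 promoter, chr13:31806396-31806645, plus strand: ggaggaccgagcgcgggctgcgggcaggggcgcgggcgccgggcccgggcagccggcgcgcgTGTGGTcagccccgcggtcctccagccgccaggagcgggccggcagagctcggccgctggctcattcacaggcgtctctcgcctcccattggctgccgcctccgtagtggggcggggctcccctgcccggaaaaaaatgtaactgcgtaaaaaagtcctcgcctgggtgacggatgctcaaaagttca

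Tbx1 (ENSMUSG00000009097.10, chromosome 16, 18580979 to 18590671, minus strand), a T-box factor, was the only member without any region in all 3 libraries. Near its inner start, 3.7 kb into the gene, replicate 1 had 8 tags and replicate 2 had 15, while no summit was listed there in Msx2-WT at any threshold. Over background the levels were 16.8 (7.26 to 33.1) and 19.0 (10.6 to 31.3) in the Msx2-KO libraries. At the same level over the class median, Msx2-WT would have shown 14.5 to 17.2 tags. Such a number need not pass the threshold, since elsewhere in the same window a summit of 19 tags in Msx2-WT did not. That summit was still listed, and why none was listed near the inner start was not tested. At the outermost start the reverse was seen, with 9 tags under the threshold in Msx2-WT and no listing in the Msx2-KO libraries. The summit lay in the gene, 565 bases from a start site of RefSeq, and the 250 bases before that start are shown because the whole of them lies in the region that only the Msx2-KO libraries hold. The peak of replicate 1 covers all of these bases, while that of replicate 2 ends at 18589040 and covers only a part. None of the motifs searched was found in them.
Tbx1 promoter, chr16:18588900-18589149, minus strand: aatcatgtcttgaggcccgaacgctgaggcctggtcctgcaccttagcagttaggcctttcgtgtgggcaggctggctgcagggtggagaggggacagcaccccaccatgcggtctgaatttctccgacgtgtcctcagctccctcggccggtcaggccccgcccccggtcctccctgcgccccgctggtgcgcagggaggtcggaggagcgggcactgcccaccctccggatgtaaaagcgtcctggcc

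Nfib (ENSMUSG00000008575.17, chromosome 4, 82290173 to 82705750, minus strand) has its basic start sites about 200 kb inside the annotated gene, and its outermost end comes from a longer transcript outside the basic set. At the basic starts Msx2-WT had 19 tags, replicate 1 had 16 and replicate 2 had 50. The levels over background were 10.9 (6.58 to 17.1), 33.6 (19.2 to 54.6) and 63.3 (47.0 to 83.4), so that Msx2-WT was again lowest without overlap, and over the class median they were 0.679, 1.23 and 1.72.

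Nfix (ENSMUSG00000001911.16, chromosome 8, 84699876 to 84800344, minus strand), the second nuclear factor I gene of the group, had 28, 11 and 18 tags in Msx2-WT, replicate 1 and replicate 2 at starts 26.0 kb into the gene. The levels over background were 16.1 (10.7 to 23.3), 23.1 (11.5 to 41.3) and 22.8 (13.5 to 36.0). These 3 intervals overlapped. The outermost starts of Nfix carried a summit of 10 tags in replicate 2 and none in the other libraries.

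Runx1 (ENSMUSG00000022952.17, chromosome 16, 92601466 to 92826149, minus strand), which has a distal and a proximal promoter, was open at the proximal one, 129 kb into the gene. There Msx2-WT had 26 tags, replicate 1 had 14 and replicate 2 had 20, or 15.0 (9.77 to 21.9), 29.4 (16.1 to 49.3) and 25.3 (15.5 to 39.1) times background. No summit was listed within 1500 bases of the distal promoter in any library. The nearest region lay 2487 bases before it and was found in Msx2-WT alone, with 14 tags.

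Sox9 (ENSMUSG00000000567.5, chromosome 11, 112782224 to 112787760, plus strand), an HMG-box factor, had 24 tags in Msx2-WT, 7 in replicate 1 and 20 in replicate 2 at its 1 start site. The levels over background were 13.8 (8.85 to 20.5), 14.7 (5.91 to 30.3) and 25.3 (15.5 to 39.1), and the intervals overlapped. Its window held 5 regions, and none of the 4 distal ones was in all 3 libraries.

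**Figure D3:**
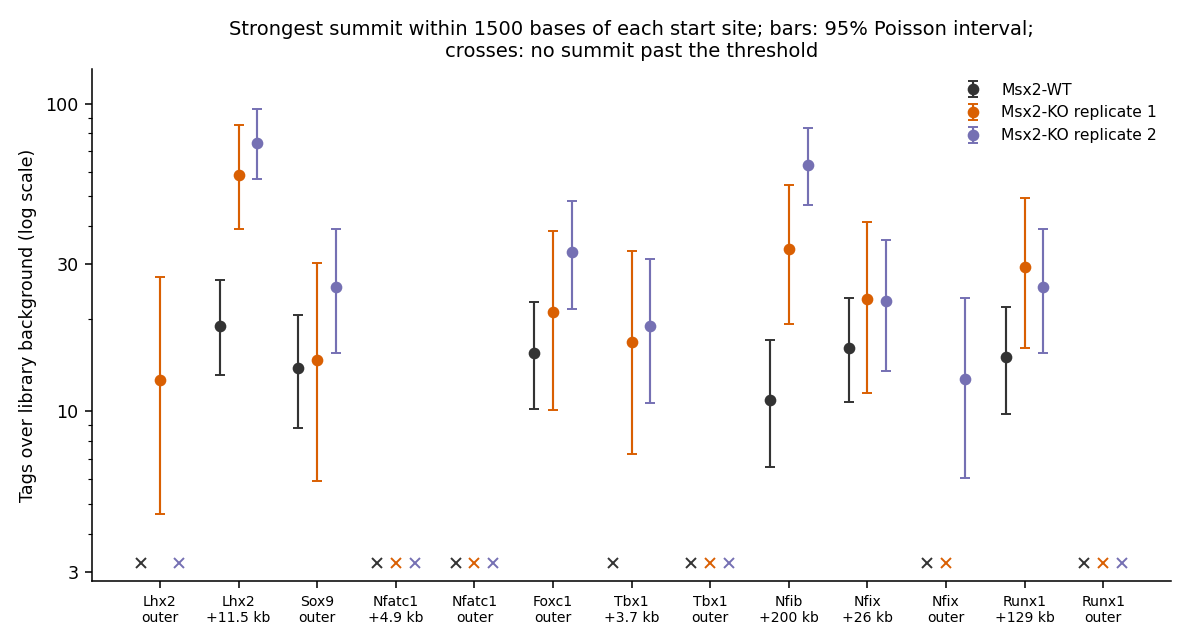
Tags over the library background, on a log scale, at the strongest summit within 1500 bases of each start site of the 8 genes, with start sites named by their distance into the gene. Points are the 3 libraries, bars are 95% Poisson intervals of the tag number and crosses mark no summit past the threshold; Msx2-WT lies below both Msx2-KO libraries without overlap at the inner Lhx2 start and at Nfib, and only crosses stand at Nfatc1, the outer Tbx1 start and the outer Runx1 start.

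The strongest shared distal region of each gene, by the library where its −log10 q was lowest, was taken as its example. For Lhx2 it lay 38.0 kb from the outermost start, past the end of the gene, with 20, 12 and 21 tags in Msx2-WT, replicate 1 and replicate 2. For Nfib it lay past the end of the gene, 422 kb from the outermost end, with 45, 17 and 40 tags. For Nfix it lay 143 kb away, 5890 bases from a start of Ier2, an immediate early gene, and had 40, 15 and 22 tags. For Runx1 it lay in an intron 195 kb into the gene, with 44, 16 and 27 tags. For Foxc1 it lay 9.05 kb before the start, in an exon of Gm11379, with 23, 12 and 17 tags. The bases within 100 of the summit are printed for 4 of these regions, since all 3 libraries hold them most firmly among the distal regions of their genes, with the motifs found in capitals. The Nfib region holds an NFI motif (TTGGCA), a RUNX motif (ACCACA, the reverse complement of TGTGGT), 3 SOX motifs (ACAATG or its reverse complement CATTGT), the first of which overlaps the RUNX motif, and an LHX motif (TAATTA). The Runx1 region holds a SOX motif (CATTGT) and a T-box motif (GGTGTGA), the Nfix region a CTCF motif (GCCCCCT), and the Lhx2 region none.
Lhx2 distal region, chr2:38377219-38377419, plus strand: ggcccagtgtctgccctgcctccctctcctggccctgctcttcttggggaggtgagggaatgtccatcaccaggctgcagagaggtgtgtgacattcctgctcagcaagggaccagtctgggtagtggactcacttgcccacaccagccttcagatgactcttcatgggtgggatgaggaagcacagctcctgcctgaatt
Nfib distal region, chr4:82283584-82283784, plus strand: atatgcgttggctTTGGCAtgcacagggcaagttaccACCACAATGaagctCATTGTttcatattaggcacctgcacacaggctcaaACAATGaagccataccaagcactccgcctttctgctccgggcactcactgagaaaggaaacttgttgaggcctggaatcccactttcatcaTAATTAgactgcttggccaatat
Nfix distal region, chr8:84656862-84657062, plus strand: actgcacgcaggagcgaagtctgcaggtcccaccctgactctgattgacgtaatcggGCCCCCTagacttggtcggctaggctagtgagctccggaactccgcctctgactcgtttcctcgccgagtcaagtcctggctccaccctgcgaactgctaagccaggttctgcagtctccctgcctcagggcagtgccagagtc
Runx1 distal region, chr16:92631034-92631234, plus strand: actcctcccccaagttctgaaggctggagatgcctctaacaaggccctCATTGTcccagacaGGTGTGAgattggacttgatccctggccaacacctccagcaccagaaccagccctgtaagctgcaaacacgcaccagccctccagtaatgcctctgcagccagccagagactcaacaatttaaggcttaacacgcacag

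Over the 20 shared distal regions of the members, within 100 bases of the summit on either strand, a RUNX motif was found in 30.0%, beside 14.5% of 6218 shared distal regions of the genome. The T-box motif was in 15.0% beside 3.89%, the LHX motif in 15.0% beside 7.77% and the MSX motif (CAATTA) in 15.0% beside 9.12%. The SOX motifs (ACAAAG or ACAATG) were in 30.0% beside 27.1%, NFI in 30.0% beside 24.7% and NFAT (TGGAAA) in 25.0% beside 27.6%. The TCF motif (TTCAAAG) was in 10.0% beside 4.47%, KLF (GGGTGTG) in 10.0% beside 10.2%, AP-1 (TGANTCA) in 10.0% beside 16.2% and CTCF (AGGGGGC) in 5.0% beside 3.38%. No FOX motif (TGTTTA) was found, beside 12.0% of the genome's regions. Each of these counts rests on at most 6 regions and is given as a description of these letters in these windows. The median GC content was 54.5% in the member distal regions and 50.2% in all shared distal regions.

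Nfatc1 (ENSMUSG00000033016.16, chromosome 18, 80606205 to 80713071, minus strand), a calcium-regulated factor of the bulge, had the most shared distal regions of the group. All 14 regions of its window were distal, and 7 of them were in all 3 libraries, a count that 0.151% of protein-coding genes reach. Per 100 kb of window this was 3.38, which 0.325% of genes reach. The gene with the same count closest in number per 100 kb was Nfkb1, also with 3.38, followed by Moxd1 with 3.90 and Mical3 with 2.34, out of 16 other genes with 7 such regions.

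The 7 shared regions of the Nfatc1 window lay at −1.99, 57.2, 95.5, 104, 119, 130 and 147 kb from the outermost start, the last 3 past the end of the gene. Those at 130 and 147 kb were nearer to a start site of Ctdp1 than to one of Nfatc1. The region just before the start, with 25 tags in Msx2-WT, 17 in replicate 1 and 34 in replicate 2, was the closest to a promoter peak that the gene had, since its summit was 1985 bases from the start. The region 57.2 kb inside had 43, 10 and 27 tags and was 3021 bases wide, the widest of the group. The farthest, at 147 kb, which passed most firmly in its weakest library, had 31, 20 and 22 tags, or 17.8, 42.0 and 27.8 times background. At 104 kb the tags were 20, 11 and 12, and at 95.5 kb, where they were lowest, 14, 7 and 11. Within 1500 bases of its start sites only listings under the threshold were found, with 7 tags in Msx2-WT at the inner start and 12 in replicate 2 at the outer one.

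The other members had fewer shared distal regions, namely 4 for Nfib, 3 for Runx1, 2 each for Lhx2, Foxc1 and Nfix, and 0 for Sox9 and Tbx1. Per 100 kb, Foxc1 had 1.89, Lhx2 1.53, Nfix 0.998, Runx1 0.924 and Nfib 0.776, and the last is a density that 20.3% of genes reach. The 4 Nfib regions stood at 111, 192, 321 and 422 kb, with 11, 56, 15 and 45 tags in Msx2-WT, 7, 14, 8 and 17 in replicate 1 and 13, 35, 25 and 40 in replicate 2. The nearest of them to the basic start, at 192 kb, was the strongest distal region of the members in Msx2-WT, at 32.2 times background. The Nfix window is crowded, since 9 other protein-coding genes start in it: its shared regions included promoters of other genes, such as those of Ier2 and of Calr, the last with 73, 39 and 46 tags. Beside the example named above, Lhx2 had a shared region in an exon at 20.7 kb with 12, 8 and 15 tags, and Foxc1 one at −21.7 kb, before the start, with 9, 7 and 13.

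Since the Sox9 window held no shared distal region, the search was widened, after its values were seen, by giving each of the 6218 shared distal regions to the nearest protein-coding start site without a limit on distance. Sox9 then received 10, a number that 0.0504% of genes reach and that compares with a median of 0 and a highest count of 16. All 10 lay beyond the 50-kb flanks, 5 before the gene, out to 774 kb, and 5 after it. A group of 4 lay close together at 121, 127, 135 and 144 kb after the start, with 18, 17, 20 and 19 tags in Msx2-WT, 8, 7, 7 and 8 in replicate 1 and 14, 16, 12 and 18 in replicate 2. The strongest in both Msx2-KO libraries, at −161 kb, had 19, 15 and 37 tags. The gene stands alone in a wide gap, with 1705 kb to the nearest protein-coding gene on one side (Kcnj2) and 457.1 kb on the other (Slc39a11), and being nearest does not show that a region acts on Sox9. A wide gap leaves more DNA nearest to 1 gene, and the count was not divided by that length. By the same rule Nfib received 7, Foxc1 6, Nfatc1 5, Runx1 4, Lhx2 2, Nfix 1 and Tbx1 0. The 4 additional Foxc1 regions lay 70.6 to 152 kb after its start, past the near end of the next gene, Gmds, which lies 7.103 kb after Foxc1. They were given to Foxc1 only because its start site was the nearest.

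**Figure D4:**
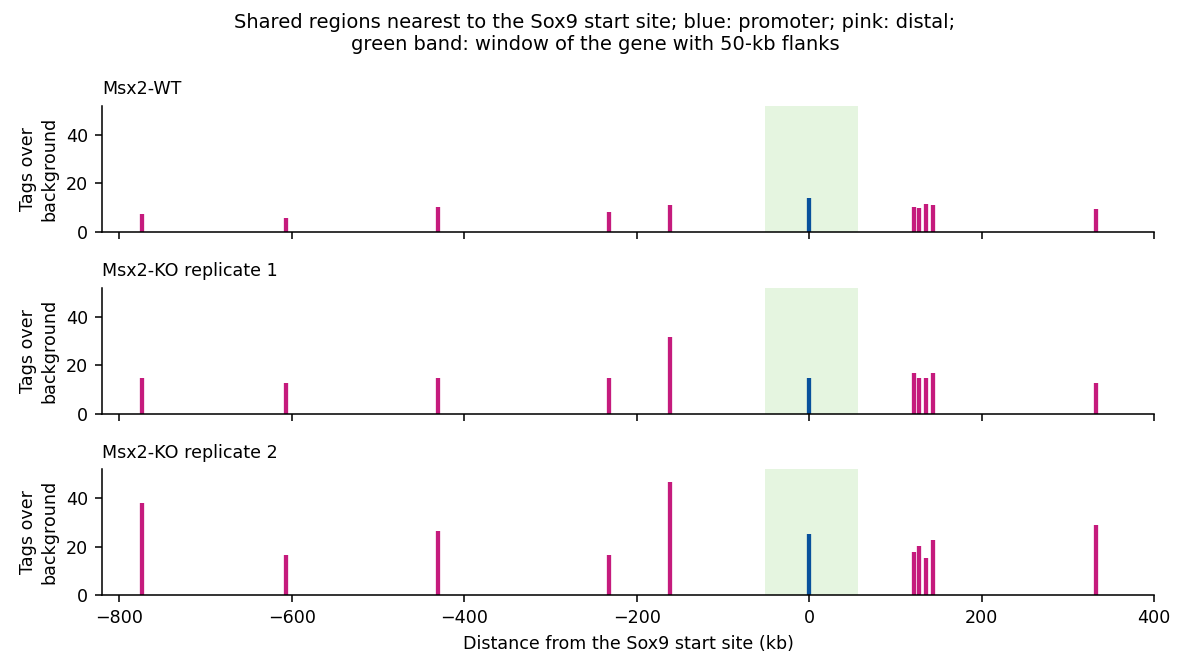
Tags over the library background of the regions in all 3 libraries that are nearest to the Sox9 start site, against their distance from it in kb, with 1 panel for each library. The blue line is the promoter, pink lines are the 10 distal regions, all outside the green band of the window with its 50-kb flanks, and 4 of them stand together from 121 to 144 kb.

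Regions that both Msx2-KO libraries held and Msx2-WT did not numbered 8 of 109, or 7.34% (3.77 to 13.8%), beside 7.66% over the genome. They were spread over 5 genes, 2 each at Tbx1, Nfib and Nfix and 1 each at Lhx2 and Foxc1. In 6 of the 8 Msx2-WT did list a summit under the threshold, compared with 51.2% of such regions over the genome. The exceptions were the Tbx1 promoter and a region in the last part of Lhx2, at chr2:38368638-38369096 in an exon, with 11 tags in replicate 1 and 14 in replicate 2. The strongest, in an intron of Gnb1l 52.1 kb from the Tbx1 start, had 12 and 33 tags, and Msx2-WT listed 19 tags there under its threshold. At Foxc1 a region at −31.4 kb, before the start, had 8 and 9 tags, with 8 listed in Msx2-WT. The named Nfib region, in an intron, had 9 and 16 tags with 7 listed in Msx2-WT, and the named Nfix region, at an exon of Trmt1, had 8 and 12 with 8 listed. In these 6 regions Msx2-WT thus did not pass the threshold but was not without a listing. At the same level over the class median it would have shown 21.6 to 29.7 tags at the Gnb1l region and 8.1 to 14.4 at the Foxc1 region. At the named Nfib and Nfix regions it would have shown 14.4 to 16.2 and 10.8 to 14.4. The tags listed in Msx2-WT were below these ranges, though at the Foxc1 region only as 8 beside a lower bound of 8.1. The regions were chosen because Msx2-WT did not pass the threshold there. That choice favours low values in Msx2-WT, so they are no separate sign of a difference. The cause was not tested.

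Regions in Msx2-WT and neither Msx2-KO library numbered 16, or 14.7% (9.24 to 22.5%), beside 18.7% over the genome, and lay at Nfix (5), Runx1 (5), Nfib (4) and Nfatc1 (2). A Msx2-KO library listed 5 of them under the threshold, compared with 29.1% over the genome. The region with the most firmly passing summit at Nfix covered the start of Trmt1, a tRNA methyltransferase gene, with 28 tags. At Nfatc1 it lay in an intron 68.8 kb from the start with 25 tags, at Runx1 in an intron 152 kb from the start with 21 tags, and at Nfib in an intron with 12 tags. At the same level over the class median the Nfatc1 region would have given 13.9 tags in replicate 1 and 27.8 in replicate 2. The Nfix region at the Trmt1 start would have given 13.0 and 29.0. The Runx1 region would have given 11.7 and 23.3, and the Nfib region 6.67 and 13.3. Neither list holds a summit at the Nfatc1 and Trmt1 regions at any threshold. At Runx1 and Nfib a single Msx2-KO library listed 5 tags under the threshold. All of these regions were chosen because neither Msx2-KO library passed there, so low values in those libraries are no separate sign of a difference.

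At the 29 shared regions the median level over background was 14.4 in Msx2-WT, 23.1 in replicate 1 and 26.6 in replicate 2, and over all 13111 shared regions it was 13.2, 23.1 and 30.4. Msx2-WT was the lowest library at 26 of the 29 and at 11427 of the 13111, so this order was general and not particular to the members. The median tag numbers behind these levels were 25, 11 and 21. The comparison between libraries was therefore made on the level divided by the median of all shared regions of the same class, promoter or distal, in the library. On this scale none of the 29 was at least 2 times higher in both Msx2-KO libraries, beside 4.00% of all shared regions, and none was at least 2 times lower in both, beside 4.22%.

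With an exact 95% binomial interval for the ratio of 2 libraries, which covers counting error only, 3 of the 29 regions departed from 1 in the same direction in both Msx2-KO libraries. They are named after their values were seen, and both ratios share the single Msx2-WT library. The Lhx2 promoter was higher, at 1.83 (1.06 to 3.12) in replicate 1 over Msx2-WT and 1.73 (1.11 to 2.73) in replicate 2, a direction that 5.16% of all shared regions had. The Nfatc1 region 57.2 kb inside the gene was lower, at 0.419 (0.188 to 0.846) and 0.565 (0.336 to 0.936), and so was the Nfib region at 192 kb, at 0.450 (0.231 to 0.819) and 0.562 (0.358 to 0.873), a direction that 4.71% of all shared regions had. In all, the interval excluded 1 at 1 region above and 2 below for replicate 1 over Msx2-WT, beside 17.5% of all shared regions in either direction. For replicate 2 over Msx2-WT it excluded 1 at 2 above and 6 below, beside 20.7%. Between the 2 Msx2-KO libraries it excluded 1 at 1 region, the Calr promoter near Nfix, beside 5.25%. The Nfib promoter was above 1 in replicate 2, at 2.54 (1.47 to 4.56), while its interval in replicate 1, 1.81 (0.872 to 3.72), held 1. At Sox9, Foxc1, Runx1 and Nfix the intervals of the shared own promoter held 1 in both, with bounds that reached from 0.229 at Sox9 in replicate 1 to 2.30 at Runx1 in the same library, so differences of that size were not detectable at this depth.

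**Figure D5:**
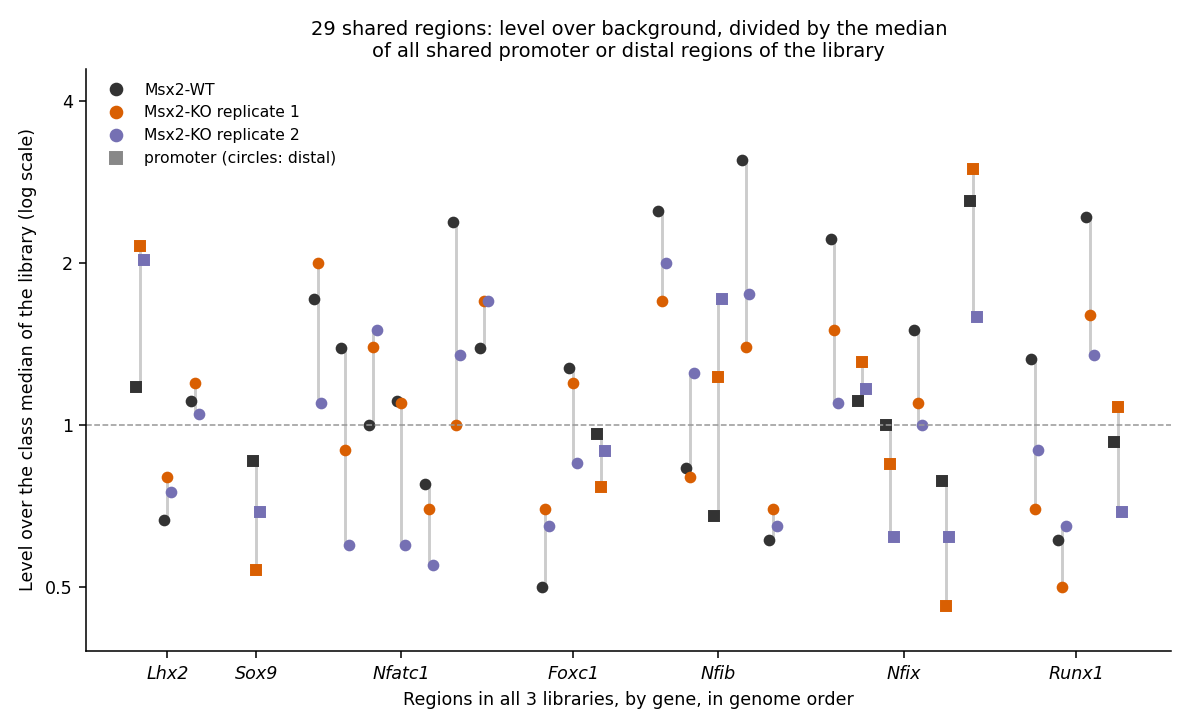
Level of each of the 29 shared regions over the library background, divided by the median of all shared promoter or distal regions of that library, on a log scale, by gene. Squares are promoters, circles are distal regions, colours are the 3 libraries (set slightly apart sideways) and grey lines join the values of 1 region; the Lhx2 promoter stands at 1.18 in Msx2-WT and at 2.15 and 2.03 in the Msx2-KO libraries, and the Nfib region with 3.11 in Msx2-WT at 1.4 and 1.75.

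The members were set beside 2 other lists. Like the members, these lists were chosen with earlier results of these data known, so neither is an independent control. Of 7 other stem cell and epithelial factors (Tcf7l1, Tcf7l2, Trp63, Klf5, Foxp1, Bcl11b and Hopx), 5 had a promoter peak in all 3 libraries, the exceptions being Trp63 and Bcl11b, which had none in replicate 1. A shared distal region was found for 6 of them, and their median count was 3, beside 2 for the members. Foxp1 had 5 and Hopx, an atypical homeobox gene, had 4. Per 100 kb of window the order was the reverse, with 0.717 at Foxp1 and 3.12 at Hopx. The median per 100 kb was 0.761 for this list and 0.961 for the members. Of 10 close relatives of the members in their own gene families (Lhx9, Sox8, Sox10, Nfatc2, Foxc2, Tbx10, Nfia, Nfic, Runx2 and Runx3), 0 had a promoter peak in all 3 libraries, against 6 of the 8 members. The share over the whole genome was 35.2%, so the members lay above it and the relatives below it. The relatives had 1 promoter peak in Msx2-WT (Runx2), 0 in replicate 1 and 3 in replicate 2 (Nfia, Nfic and Runx2). Their median count of shared distal regions was 1, with 4 at Nfia and 2 at Sox10, and 6 of the 10 had at least 1. The genome share with at least 1 was 29.0%, below that of the members and of both lists. Per 100 kb the median of the relatives was 0.341, with 0.897 at Nfia and 1.81 at Sox10.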

How the data were processed

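Omni-ATAC-seq peak lists of 3 libraries (1 Msx2-WT, 2 Msx2-KO) were used. The authors used Trimmomatic for trimming, BWA-MEM for alignment to GRCm38 and, after removal of mitochondrial reads, MACS2 for calling peaks library by library, without a shifting model and with duplicates kept, so tags are not independent molecules and all intervals cover counting error only. The labels also name Partek. The authors deposited a fold (tags plus 1 over local background plus 1), a −log10 p-value and a −log10 q-value for each summit. The deposited score was not used. Contrary to the stated q-value limit, the lists stop at a p-value of 0.01, and 32.2%, 53.3% and 49.3% of deposited summits passed a −log10 q of 2. In both Msx2-KO lists the names of peaks contain cKO, and in that of replicate 1 they contain a library number that differs from the label. The labels were followed.

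Whole tag numbers were solved from fold and −log10 p for 99.96%, 99.97% and 99.97% of summits, a step tested on simulated data. Start sites came from the basic GENCODE M21 annotation, and promoter sequences from RefSeq on GRCm38. RefSeq promoters were matched by symbol, and for Sox9 none was printed. Python 3.11.15, pandas 2.3.3, scipy 1.17.1 and pysam 0.24.0 were used. The text names all 8 genes, their promoter regions and, per gene, the shared distal region, the region of both Msx2-KO libraries only and that of Msx2-WT only with the largest −log10 q in the weakest library holding it. Genes, lists and rules were chosen with earlier results of these data known. As alternatives, the limit on −log10 q was set to at least 5, or use was made of every deposited summit, lists of equal length, 25-kb flanks, promoter windows of 500 and 3000 bases, 50% reciprocal overlap, the deposited fold and leaving out either Msx2-KO library.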

Additional observations from a re-analysis of the deposited data

How the results depend on the processing

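Many counts changed with the limit on −log10 q. At a −log10 q of at least 5 the windows held 45, 15 and 51 summits in Msx2-WT, Msx2-KO replicate 1 and replicate 2, and with every deposited summit 152, 82 and 184. With lists of equal length they held 47 in Msx2-WT and 38 in replicate 2, so that replicate 1, with 48, was no longer lowest. Shared regions numbered 13 at a −log10 q of at least 5 and 47 with every deposited summit. Regions in both Msx2-KO libraries and not Msx2-WT fell to 0 at a −log10 q of at least 5 and to 3 with lists of equal length, rose to 12 with every deposited summit, and ranged from 12 to 44 when a Msx2-KO library was left out, with 44 without replicate 1. Regions in Msx2-WT alone rose to 44 with every deposited summit and to 24 with 50% reciprocal overlap, and ranged from 18 to 30 when a Msx2-KO library was left out, with 30 without replicate 2. Genes with a promoter peak in all 3 libraries numbered 3 at a −log10 q of at least 5 and 7 with a promoter window of 3000 bases, where Nfatc1 joined. By the deposited fold the medians at shared regions were 5.85, 4.95 and 6.29, with Msx2-WT no longer lowest, and in replicate 2 the median was 43.0 at a −log10 q of at least 5. The other alternatives moved these values by less than 1.5 times. The causes were not tested. No paired analysis was made, since no test between groups was made and the labels do not pair libraries of different genotypes.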

Other observations

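The 9 shared promoter regions in the windows had lower GC content than shared promoters in general, with a median of 60.7% compared with 65.2%, and were spread over both own promoters and those of neighbours. An NFI motif (TTGGCA) was found within 100 bases of the summit in 33.3% of them, beside 6.85% of 6893 shared promoter regions, an NFAT motif (TGGAAA) in 33.3% beside 9.62%, and an LHX motif (TAATTA) in 11.1% beside 0.957%. No CTCF, RUNX, FOX, MSX, T-box or TCF motif was found in these 9 windows. Each share rests on at most 3 regions.

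Some family relatives had peaks at a distance and none at the start. Sox10, a factor of melanocytes and glia, had 3 regions in all 3 libraries, 2 of them distal, and no promoter peak in any library, while the melanocyte genes Dct and Pmel had promoter peaks of 19, 17 and 33 tags and of 25, 15 and 23 tags in Msx2-WT, replicate 1 and replicate 2. Tyrp1, a further melanocyte gene, had none. Runx3 had no region in its window in any library.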
